A study of Drosophila melanogaster with 52 samples.

Results

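The genes engrailed (en), invected (inv), hedgehog (hh), patched (ptc), cubitus interruptus (ci) and smoothened (smo) were followed across wild-type and Polycomb recruiter mutant larvae of Drosophila melanogaster. The 6 members were taken by symbol from a deposited table of normalized FPKM, a fragment count scaled by gene length and library size, which lists 16502 genes. All 6 passed the filter on low values that left 9748 tested genes. Poly(A) RNA came from imaginal discs and brains dissected together from larvae of the third instar, with 3 libraries of wild type (WT), 4 of a maternal-zygotic Spps mutant (SppsKO), in which mother and larva both lack the gene, and 3 of a zygotic pho mutant (PhoKO), whose mothers could still supply pho product to the egg. The sources used here name no allele, strain background or sex for these groups.

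The paralogous homeodomain genes en and inv lie side by side and mark the posterior compartment of each disc, where they keep hh on and ci off. Hedgehog spreads to anterior cells and binds Patched, which otherwise holds the membrane protein Smoothened inactive. Active Smoothened stops the cutting of the zinc finger protein Ci into a repressor, and full-length Ci then switches on targets that include ptc itself and dpp. Spps and Pho are zinc finger proteins that bind Polycomb response elements, and the elements next to en are the site where their binding was studied in most detail.

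The targeted genes followed the labels. Spps lay between 12.2 and 12.9 FPKM in WT and between 0.877 and 1.04 FPKM in SppsKO. The pho level lay between 53.7 and 67.8 FPKM in WT and between 15.3 and 18.7 FPKM in PhoKO. Relative depth, read from the steps between low values with WT 1 as 100%, was 59.9% in WT 3 and 63.7% in PhoKO 1 and at least 87.1% in the other 8 libraries. All 8 disc epithelium markers and all 5 neuron markers were detected in every group, and no marker of any list was at 0 throughout. PhoKO 1 stood apart in its summed muscle markers, at 582 FPKM against 148 to 256 in the other PhoKO libraries, and in its summed glial markers, at 350 against 281 to 293 FPKM. The glial gap lay largely in Gs2, at 147 FPKM in PhoKO 1 against 97.8 and 79.9 FPKM in PhoKO 2 and 3. In the same order nrv2 was at 140, 134 and 143 FPKM and repo at 22.8, 21.3 and 19.0 FPKM. SppsKO 4 had the lowest summed muscle markers, at 67.7 FPKM against 143 to 147 in the other SppsKO libraries. Markers of other tissues also varied between libraries of a genotype. Summed gut and Malpighian tubule markers were at 294 FPKM in PhoKO 3 against 8.11 and 9.25 FPKM in PhoKO 1 and 2. Salivary gland sums ran from 783 to 5617 FPKM in WT, from 256 to 2727 FPKM in SppsKO and from 64.4 to 1306 FPKM in PhoKO. In the same order fat body sums ran from 1002 to 4495 FPKM, from 1057 to 1725 FPKM and from 555 to 3232 FPKM.

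All 6 genes were expressed well above the filter in wild type. The ci level was the highest at 93.8 ± 8.03 FPKM (SD, n = 3), at percentile 89.2 of the tested genes. It was followed by ptc at 36.2 ± 0.515 FPKM, en at 31.8 ± 2.13 FPKM, inv at 30.9 ± 3.05 FPKM, hh at 27.7 ± 0.513 FPKM and smo at 23.1 ± 0.504 FPKM, the last at percentile 54.8. In that order the WT libraries of en and inv overlapped, as did those of inv and hh, whereas ci and ptc, ptc and en, and hh and smo were separated in every library. FPKM is scaled by gene length, so these levels can be set against each other, but the reference annotation places other genes over 3 of the members. The genes CG11601 and CG17078 overlap smo and averaged 20.3 and 52.7 FPKM, CR43957 overlaps ci at 3.90 FPKM, and CR44281 overlaps ptc at 0.573 FPKM. The strand setting of the counting is not given in the sources used here, so fragments of overlapping genes cannot be told apart and the level of smo in particular is uncertain.

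**Figure D1:**
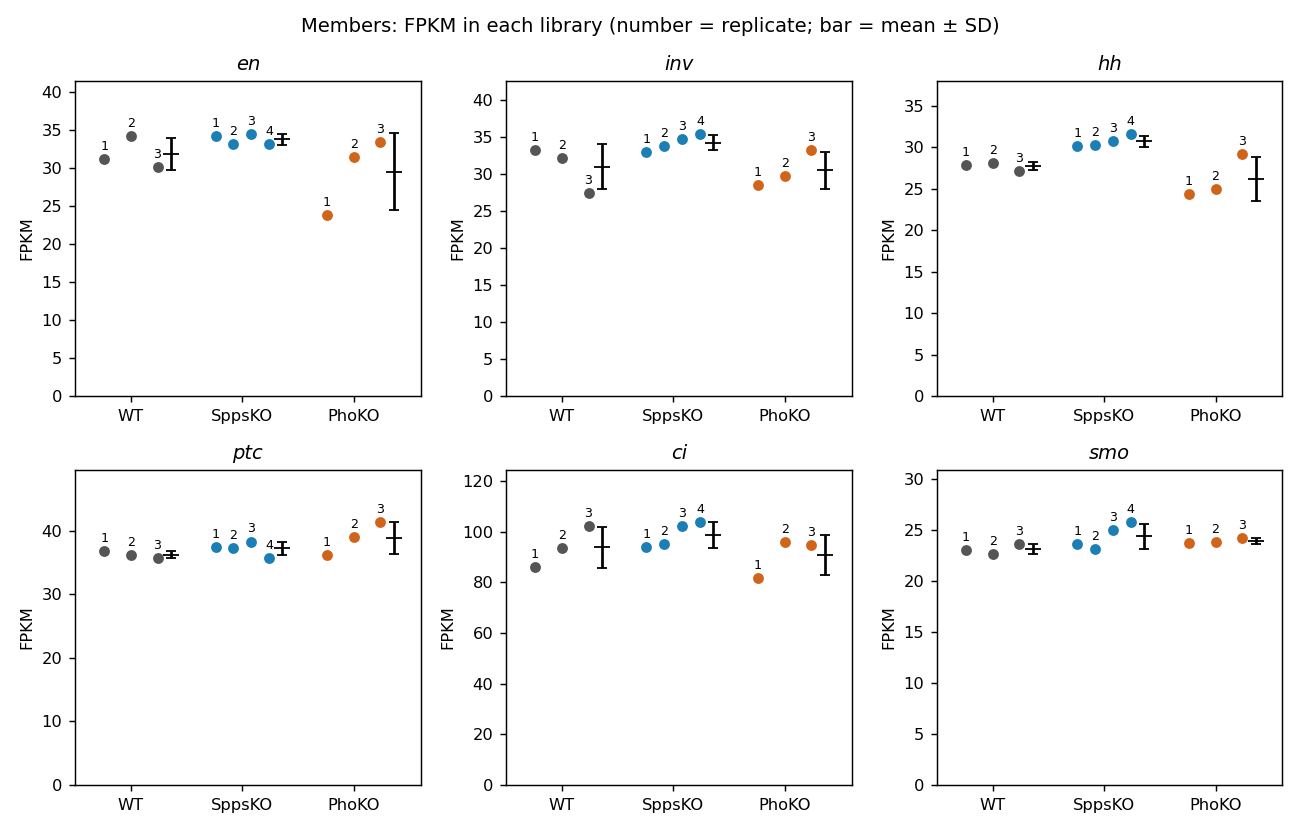
FPKM of the 6 genes in each library, in 1 panel per gene with its own axis from 0; points are libraries of WT, SppsKO and PhoKO, and bars show the mean and SD. The 4 SppsKO libraries of hh sit above all 3 WT libraries and all 3 PhoKO libraries, and the lowest PhoKO point of en is PhoKO 1.

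Neither mutant changed any of the 6 genes against WT past an adjusted p of 0.05 in limma's test across all tested genes. Over all tested genes the called share was 8.18% in SppsKO (3.92% higher, 4.26% lower) and 9.66% in PhoKO (4.59% higher, 5.08% lower), so 0 of 6 is not a number that sets these genes apart. At an unadjusted p under 0.05 the count was 1 of 6 in SppsKO, for hh, and 0 of 6 in PhoKO. Over all tested genes that count was 2358 of 9748 in SppsKO and 2306 of 9748 in PhoKO. The median log2 fold change of the members was 0.08 in SppsKO and -0.03 in PhoKO, and over all tested genes it was 0.00097 and -0.0019. The 95% intervals of the 12 fold changes against WT ran from -0.35 to 0.30 on the log2 scale, so larger changes in either direction lay outside every interval. Libraries of mutant and WT did not overlap for 1 of 6 genes in each mutant, beside 24.0% of all tested genes in SppsKO and 28.2% in PhoKO. In bulk tissue, fewer cells of a type and less RNA per cell cannot be told apart. No label ties the libraries of a genotype to separate crosses, so each p measures the spread between libraries, which may be partly technical.

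The posterior selector en was at 31.1, 34.2 and 30.1 FPKM in WT, at 34.2, 33.1, 34.5 and 33.2 FPKM in SppsKO and at 23.8, 31.4 and 33.4 FPKM in PhoKO. The low value was PhoKO 1, and the other 9 libraries lay close together, so the groups overlapped. On the log2 scale the change was 0.09 in SppsKO (SE 0.10, 95% interval -0.13 to 0.30, adjusted p = 0.646 in limma). In PhoKO it was -0.12 (SE 0.10, 95% interval -0.35 to 0.12, adjusted p = 0.563 in limma), and it turned to 0.03 without PhoKO 1.

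Its partner inv was at 33.2, 32.2 and 27.5 FPKM in WT, at 33.0, 33.8, 34.6 and 35.4 FPKM in SppsKO and at 28.4, 29.7 and 33.2 FPKM in PhoKO. WT 3 was the lowest of the 10 libraries, and SppsKO sat at the upper end with its lowest library inside the WT range. For inv the log2 fold change was 0.15 in SppsKO (SE 0.07, 95% interval -0.01 to 0.30, adjusted p = 0.244 in limma) and -0.02 in PhoKO (SE 0.08, 95% interval -0.19 to 0.15, adjusted p = 0.918 in limma). The PhoKO value changed sign without PhoKO 1, WT 1 or WT 2, at 0.03, 0.03 and 0.01.

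The ligand gene hh was at 27.9, 28.1 and 27.1 FPKM in WT, at 30.1, 30.3, 30.8 and 31.6 FPKM in SppsKO and at 24.3, 25.0 and 29.2 FPKM in PhoKO. Every SppsKO library was above every WT and every PhoKO library, and PhoKO spread to both sides of WT. Against WT the log2 fold change was 0.14 in SppsKO (SE 0.06, 95% interval 0.01 to 0.27, adjusted p = 0.167 in limma). This missed the threshold, although it passed when PhoKO 3, which enters through the shared estimate of spread, was left out (adjusted p = 0.03998 in limma). In PhoKO it was -0.08 (SE 0.06, 95% interval -0.22 to 0.05, adjusted p = 0.457 in limma).

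Between the mutants, hh was the 1 member of 6 that was called, beside 14.4% of all tested genes in either direction and 7.12% called lower. Its level was lower in PhoKO than in SppsKO, with a mean of 26.2 ± 2.66 FPKM (SD, n = 3) against 30.7 ± 0.692 FPKM (n = 4) and a change of the mean of -14.8%. The log2 fold change was -0.23 (SE 0.06, 95% interval -0.35 to -0.10, adjusted p = 0.0277 in limma). No library of PhoKO reached the lowest of SppsKO, a separation found for 31.4% of all tested genes in either direction. The direction held without any of the 10 libraries, but the call did not. The adjusted p in limma was 0.0992 without PhoKO 1 and 0.103 without PhoKO 2. It lay between 0.0536 and 0.0625 without SppsKO 1, 2, 3 or 4.

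Other tissues differed between the same groups. Summed hemocyte markers were between 35.6 and 54.6 FPKM in SppsKO, against 97.9 to 143 FPKM in PhoKO and 116 to 204 FPKM in WT. All 6 hemocyte markers were called between the mutants in limma, each with more in PhoKO, beside 7.24% of all tested genes called higher there. Against WT, 5 of the 6 were called lower in SppsKO, beside 4.26% of all tested genes. The remaining marker, NimC1, went the other way, at 1.45 to 1.98 FPKM in SppsKO against 0.868 to 1.27 FPKM in WT. It was not called (log2 fold change 0.38, adjusted p = 0.160 in limma). Summed muscle markers were between 67.7 and 147 FPKM in SppsKO, against 148 to 582 FPKM in PhoKO and 221 to 233 FPKM in WT. Of 5 muscle markers 0 were called between the mutants, with 4 at an unadjusted p under 0.05, beside 2999 of 9748 tested genes. In SppsKO against WT 0 of 5 were called. Summed disc epithelium markers overlapped, at 312 to 325 FPKM in WT, 289 to 326 FPKM in SppsKO and 291 to 338 FPKM in PhoKO. In SppsKO against WT 2 of 8 were called, wg higher and ap lower, beside 3.92% and 4.26% of all tested genes. The ap level was between 36.2 and 38.3 FPKM in SppsKO and between 44.5 and 49.9 FPKM in WT. The wg call was lost in several refits, as given below. PhoKO 1, the library with the lowest en, hh and ci of all 10, had the lowest disc sum of its group, and SppsKO 4, with the highest hh, had the lowest of its own. The low sum of SppsKO 4 lay mostly in 1 marker, hth, at 70.7 FPKM against 92.3 to 100 FPKM in the other SppsKO libraries. Between the mutants 4 of 5 glial markers, 3 of 5 neuroblast markers and 2 of 8 disc epithelium markers (Dll and ap) were called higher in PhoKO. Of 5 neuron markers 0 were called there. Summed glial markers were between 224 and 243 FPKM in SppsKO and between 281 and 350 FPKM in PhoKO, and neuroblast sums between 56.7 and 61.3 FPKM and between 66.6 and 75.7 FPKM. The part of tissue makeup in the hh difference was not tested.

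The other 5 members were not called between the mutants. For en the log2 fold change from SppsKO to PhoKO was -0.20 (95% interval -0.42 to 0.02, adjusted p = 0.195 in limma), and without PhoKO 1 it was -0.06. For inv it was -0.16 (95% interval -0.32 to -0.01, adjusted p = 0.148 in limma). The values for ci, ptc and smo were -0.12, 0.06 and -0.02, and the median over the 6 members was -0.14, beside -0.0053 over all tested genes.

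**Figure D2:**
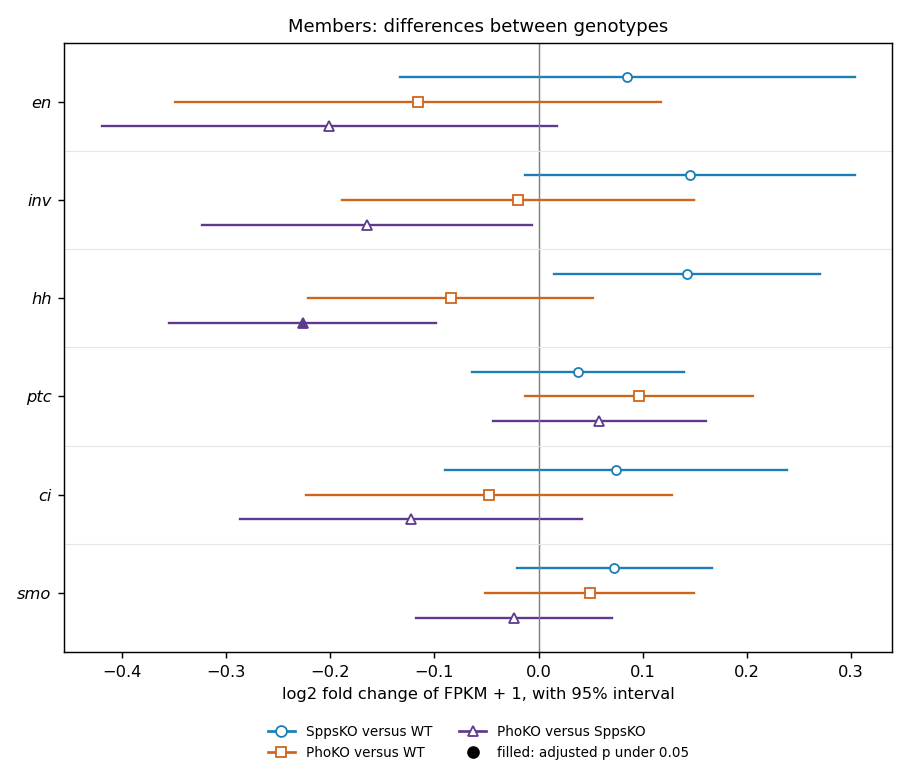
Log2 fold changes of FPKM + 1 of the 6 genes with 95% intervals in the 3 comparisons of WT, SppsKO and PhoKO; a filled symbol marks an adjusted p under 0.05. The only filled symbol is hh in PhoKO versus SppsKO, at -0.23, and the interval of en is the widest in each comparison.

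The receptor gene ptc, which is also the most widely used readout of Hedgehog signalling, was at 36.8, 36.3 and 35.7 FPKM in WT. It was at 37.5, 37.3, 38.3 and 35.8 FPKM in SppsKO and at 36.2, 39.0 and 41.4 FPKM in PhoKO. The WT libraries were tight and each mutant had a library inside their range. Its log2 fold change was 0.04 in SppsKO (95% interval -0.06 to 0.14, adjusted p = 0.666 in limma) and 0.10 in PhoKO (95% interval -0.01 to 0.21, adjusted p = 0.275 in limma).

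The signal transducer smo was at 23.0, 22.7 and 23.6 FPKM in WT, at 23.6, 23.1, 25.0 and 25.7 FPKM in SppsKO and at 23.7, 23.9 and 24.2 FPKM in PhoKO. All PhoKO libraries were above all WT libraries, but the groups nearly met, at 23.71 FPKM in the lowest PhoKO and 23.65 FPKM in the highest WT library. SppsKO overlapped with both. For smo the log2 fold change was 0.05 in PhoKO (95% interval -0.05 to 0.15, adjusted p = 0.571 in limma) and 0.07 in SppsKO (95% interval -0.02 to 0.17, adjusted p = 0.328 in limma).

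The transcription factor gene ci was at 86.0, 93.4 and 102 FPKM in WT, at 93.7, 95.02, 102 and 104 FPKM in SppsKO and at 81.7, 95.9 and 94.6 FPKM in PhoKO. WT alone spanned most of this range, and PhoKO 1 was again the lowest. For ci the log2 fold change was 0.07 in SppsKO (95% interval -0.09 to 0.24, adjusted p = 0.585 in limma) and -0.05 in PhoKO (95% interval -0.22 to 0.13, adjusted p = 0.782 in limma). The PhoKO value changed sign without WT 3 or PhoKO 1, at 0.01 and 0.02.

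**Figure D3:**
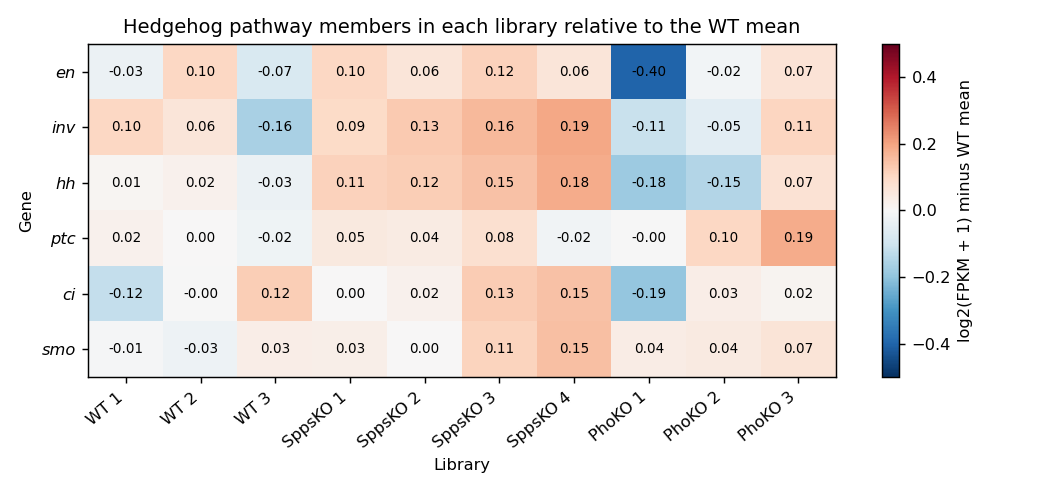
Deviation of log2(FPKM + 1) of each gene in each library from the WT mean of that gene, as a colour scale with the value printed in each cell; columns are the 10 libraries and rows the 6 genes. PhoKO 1 holds the largest deviation, -0.40 for en, and the 4 SppsKO libraries deviate by 0.11 to 0.18 for hh.

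Ratios within a library compare genes that are on together or in opposite compartments. The ratio of inv to en was between 0.913 and 1.07 in WT, between 0.964 and 1.07 in SppsKO and between 0.945 and 1.195 in PhoKO. The ratio of ptc to ci, both anterior genes, was between 0.350 and 0.427 in WT, between 0.345 and 0.4004 in SppsKO and between 0.407 and 0.443 in PhoKO. The PhoKO and SppsKO libraries did not overlap in that ratio, and its log2 value was higher in PhoKO by 0.18 (-1.22 ± 0.0661 against -1.40 ± 0.0954, SD, n = 3 and 4). In a two-sided exact permutation test this gave p = 0.0571, and 0.686 after Benjamini-Hochberg adjustment over the 12 ratio tests. The other ratios were ci to en and hh to en, and their libraries overlapped in all 3 comparisons. None of the 12 tests passed, and the smallest p the design allowed was 0.0286 with 3 against 4 libraries and 0.1 with 3 against 3.

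Across the 10 libraries inv and hh varied most alike among the 15 pairs of members, with Pearson's r = 0.853 of log2(FPKM + 1), followed by en and hh at 0.773 and en and inv at 0.703. The receptor ptc and ci were at the low end at 0.0546. The genes outside the 6 with the pattern most like en were Spn77Ba, ckn and d, with r between 0.952 and 0.967, and those most like inv were fz3, PIG-S and Aats-ala, with r between 0.943 and 0.950. For hh they were Phax, yps and CycB, for ptc Scm, ASPP and Mcr, and for ci Eph, Eb1 and Zip102B, and those for smo included I-2 and RpS27A, with r from 0.913 to 0.964. These values describe 10 libraries that share genotype, depth and dissection between all genes.

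The genes that release and receive Hedgehog were listed with their roles known from fly discs, 10 in all with hh, ptc and smo among them, and all 10 were tested. In SppsKO 0 of 10 were called against WT, with 3 at an unadjusted p under 0.05 and a median log2 fold change of 0.04. Over all tested genes 8.18% were called in that comparison, and 2358 of 9748 had an unadjusted p under 0.05. In PhoKO 1 of 10 was called, which was higher, beside 9.66% of all tested genes, and the median was -0.04. The called gene was ihog, which encodes an immunoglobulin family co-receptor that binds Hedgehog together with Patched. It was at 76.6, 79.0 and 72.9 FPKM in WT, at 85.3, 85.8, 86.6 and 88.6 FPKM in SppsKO and at 88.1, 96.3 and 103 FPKM in PhoKO. All mutant libraries were above WT, and PhoKO overlapped narrowly with SppsKO. The log2 fold change was 0.33 in PhoKO (SE 0.06, adjusted p = 0.00569 in limma) and 0.18 in SppsKO (SE 0.05, adjusted p = 0.0629 in limma). Between the mutants the difference was 0.14 (95% interval 0.03 to 0.26, adjusted p = 0.0983 in limma), which did not pass.

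The related co-receptor gene boi had a log2 fold change of 0.12 in SppsKO and 0.13 in PhoKO, with adjusted p of 0.227 and 0.210 in limma. The most abundant list members that were not called in PhoKO were dally, a glypican that helps Hedgehog spread, and shf, a secreted protein that stabilizes it. The dally level averaged 70.4 FPKM in WT and 69.1 FPKM in PhoKO, with a log2 fold change of -0.03. For rasp, which encodes the acyltransferase that adds palmitate to Hedgehog, the values were -0.13 in SppsKO and -0.15 in PhoKO, with adjusted p of 0.0851 and 0.0632 in limma. For disp, needed to release the ligand, they were 0.0013 and -0.12. The members rasp, boi and disp fall outside the naming rule and were chosen after their values were seen. Between the mutants hh alone was called in this list, as given above, and the median was -0.04.

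**Figure D4:**
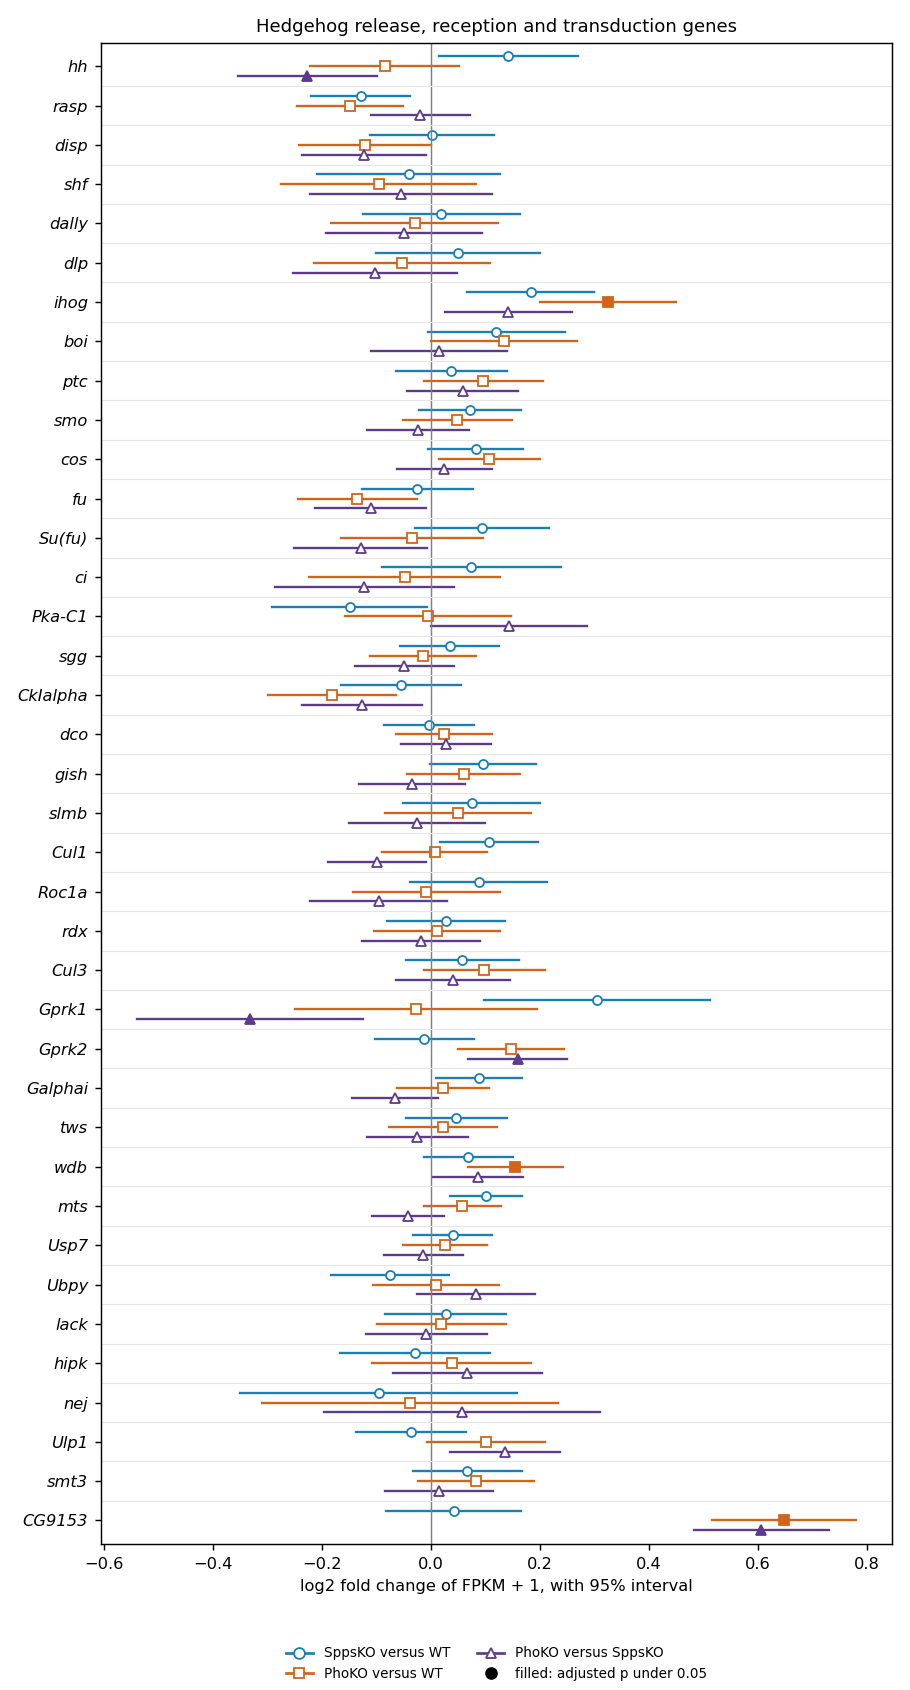
Log2 fold changes of FPKM + 1 with 95% intervals for the genes of Hedgehog release, reception and transduction in the 3 comparisons; a filled symbol marks an adjusted p under 0.05. In PhoKO versus WT the filled symbols are ihog at 0.33, wdb at 0.16 and CG9153 at 0.65, and no symbol of SppsKO versus WT is filled.

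Of 28 genes that carry the signal from Smoothened to Ci, all tested, 0 were called in SppsKO, with 5 at an unadjusted p under 0.05 and a median log2 fold change of 0.04. Over all tested genes 8.18% were called there, and 2358 of 9748 had an unadjusted p under 0.05. In PhoKO 2 were higher and 0 lower than WT, with a median of 0.02. The 2 of 28 called, 7.14%, stand beside 9.66% of all tested genes, a share near the background. CG9153, the current Herc4, encodes a HECT-type ubiquitin ligase reported to act on Smoothened in the fly. It was at 37.4, 36.8 and 38.4 FPKM in WT, at 41.3, 40.6, 37.5 and 35.7 FPKM in SppsKO and at 61.3, 56.1 and 60.9 FPKM in PhoKO. Every PhoKO library lay well above both other groups, while SppsKO and WT overlapped. The log2 fold change was 0.65 in PhoKO against WT (SE 0.06, adjusted p = 0.000155 in limma), 0.61 against SppsKO (SE 0.06, adjusted p = 0.000129 in limma) and 0.04 in SppsKO against WT (95% interval -0.08 to 0.17).

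The other called gene in PhoKO was wdb, which encodes a regulatory subunit of the phosphatase PP2A. Its level rose from 79.1 to 88.2 FPKM, a log2 fold change of 0.16 (SE 0.04, adjusted p = 0.0372 in limma). The wdb call was lost without PhoKO 1, 2 or 3, SppsKO 1 or 2, or WT 1 or 2, at fold changes of 0.14 to 0.16 and adjusted p of 0.0593 to 0.120 in limma, and in a fit of PhoKO and WT alone (adjusted p = 0.0861). The 3 most abundant list members, the SUMO gene smt3, the PP2A catalytic subunit gene mts and the cullin partner Roc1a, were not called in either mutant. The core components cos, a kinesin-like scaffold, fu, a kinase, and Su(fu), which binds Ci, had log2 fold changes in PhoKO of 0.11, -0.13 and -0.03, with adjusted p of 0.147, 0.122 and 0.789 in limma. These 3 were named after their values were seen.

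Between the mutants 2 transduction genes were higher in PhoKO and 1 lower, with a median of -0.02, which is 10.7% of the list beside 14.4% of all tested genes. Besides CG9153 these were the kinase genes Gprk2, which encodes the kinase that phosphorylates active Smoothened, and Gprk1. Gprk2 was between 35.9 and 37.3 FPKM in PhoKO and between 30.6 and 33.5 FPKM in SppsKO, with a log2 fold change of 0.16 (SE 0.04, adjusted p = 0.0282 in limma). Gprk1 was between 46.7 and 52.7 FPKM in PhoKO and between 59.2 and 66.4 FPKM in SppsKO, with -0.33 (SE 0.09, adjusted p = 0.0407 in limma), and WT spread from 46.0 to 61.2 FPKM across both. The Gprk2 call was lost without PhoKO 1, 2 or 3 or SppsKO 1, at 0.14 to 0.17 and adjusted p of 0.0571 to 0.0853 in limma, and without WT 3 and PhoKO 1 together (0.0579). The Gprk1 call was lost without any single library of either mutant, at -0.37 to -0.28 and adjusted p of 0.0561 to 0.135 in limma, with no filter (0.0611) and with eBayes without trend (0.05498).

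Among 20 known targets of Hedgehog or Ci in discs, eye and lamina, with ptc and en among them, all 20 were tested. In SppsKO 1 was higher than WT and 0 lower, beside 3.92% and 4.26% of all tested genes, and the median log2 fold change was 0.04. In PhoKO 6 were higher and 0 lower, with a median of 0.13, beside 4.59% of all tested genes called higher. Between the mutants 8 were higher in PhoKO, beside 7.24% of all tested genes, and 1 was lower, with a median of 0.10. The list was chosen with earlier results of these data known, so these counts cannot support an excess over those shares. The 6 genes that rose in PhoKO were ato, eya, so, stg, h and rho, and none of them is ptc or dpp.

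**Figure D5:**
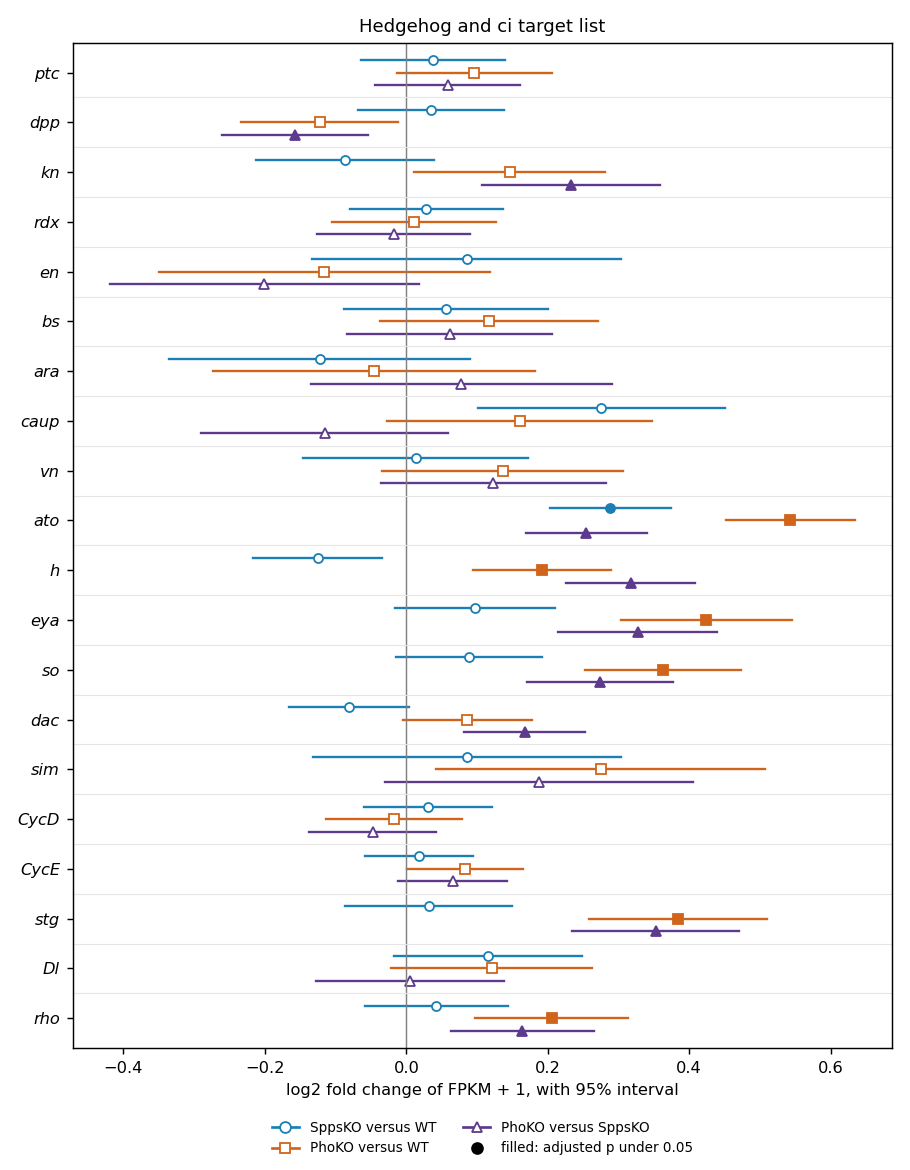
Log2 fold changes of FPKM + 1 with 95% intervals for the 20 genes of the Hedgehog and ci target list in the 3 comparisons; a filled symbol marks an adjusted p under 0.05. The gene ato has filled symbols in all 3 comparisons, at 0.29, 0.54 and 0.25, whereas ptc has none.

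The proneural gene ato, which founds the first photoreceptor at the eye's morphogenetic furrow, was at 17.2, 17.1 and 17.8 FPKM in WT. It was at 21.2, 21.4, 20.5 and 22.6 FPKM in SppsKO and at 25.8, 26.0 and 25.3 FPKM in PhoKO. The 3 groups were separated in every library. Log2 fold changes were 0.29 in SppsKO (SE 0.04, adjusted p = 0.00152), 0.54 in PhoKO (SE 0.04, adjusted p = 3.46e-05) and 0.25 between the mutants (SE 0.04, adjusted p = 0.00239), all in limma.

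The retinal determination genes eya and so encode a transcription cofactor and its homeodomain partner. The eya level was between 25.8 and 26.6 FPKM in WT, between 27.0 and 29.5 FPKM in SppsKO and between 33.5 and 38.3 FPKM in PhoKO. In PhoKO the log2 fold change was 0.42 for eya (adjusted p = 0.00112 in limma) and 0.36 for so (adjusted p = 0.00166 in limma). In SppsKO these genes were at 0.10 and 0.09, with adjusted p of 0.273 and 0.276 in limma. The cell cycle phosphatase gene stg, the fly Cdc25, was at 0.38 in PhoKO (adjusted p = 0.00248 in limma) and 0.03 in SppsKO.

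The repressor gene h and the protease gene rho, which activates EGF receptor ligands, rose less, with log2 fold changes of 0.19 and 0.21 in PhoKO (adjusted p = 0.0240 and 0.0279 in limma). The h call was lost without PhoKO 2, PhoKO 3, WT 1 or WT 2, at 0.16 to 0.20 and adjusted p of 0.0524 to 0.0905 in limma, and in a fit of PhoKO and WT alone (0.0860). The rho call was lost without PhoKO 1, PhoKO 3, WT 2 or WT 3, at 0.17 to 0.21 and adjusted p of 0.0674 to 0.0866 in limma, and in that fit (0.0896). In SppsKO h was at -0.13 (adjusted p = 0.0934 in limma), with all 4 libraries below WT. From SppsKO to PhoKO its log2 fold change was 0.32 (SE 0.04, adjusted p = 0.00102 in limma).

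The abundant targets that were not called in PhoKO against WT were dac and rdx. The retinal determination gene dac was at 0.09 against WT and rose by 0.17 against SppsKO (adjusted p = 0.0187 in limma, and 0.0696 and 0.0618 without PhoKO 2 and PhoKO 3), and rdx, an adaptor for Ci degradation, was at 0.01 against WT. The wing targets kn and dpp, which are switched on at the compartment border, moved in opposite directions between the mutants. The transcription factor gene kn was higher in PhoKO than in SppsKO by 0.23 (adjusted p = 0.0242 in limma), a call lost without PhoKO 1, PhoKO 2, SppsKO 1 or SppsKO 2 at 0.21 to 0.24 and adjusted p of 0.0578 to 0.0919, with quantile scaling (0.106) and without WT 3 and PhoKO 1 together (0.0687). The growth factor gene dpp was at 13.7, 15.4 and 14.9 FPKM in PhoKO and between 16.0 and 17.0 FPKM in SppsKO. Its log2 fold change was -0.16 (SE 0.05, adjusted p = 0.0492 in limma), and the call was lost without any single library of either mutant, WT 1 or WT 2, at -0.19 to -0.11 and adjusted p of 0.0517 to 0.152 in limma. It was also lost with array weights, a fit of the mutants alone, a mean of 5 FPKM or more, median-of-ratios scaling, no filter, or without WT 3 and PhoKO 1 together, at adjusted p of 0.0503 to 0.125. Both genes lie outside the naming rule in this comparison and were named after their values were seen.

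Several glial and neuroblast markers also differed between PhoKO and WT, and no neuron marker was called. Discs and brains were dissected together, so the site of these differences was not measured. Of 5 glial markers 4 were called higher in PhoKO than in WT (repo, nrv2, loco and moody), with sums of 281 to 350 FPKM against 242 to 253 FPKM. Of 5 neuroblast markers 3 were called higher (mira, wor and insc), with sums of 66.6 to 75.7 FPKM against 58.7 to 63.2 FPKM. The neuroblast marker ase averaged 9.99 FPKM in PhoKO and 9.51 FPKM in WT, and dpn 4.43 and 4.72 FPKM. Of 5 neuron markers 0 were called, with sums of 173 to 207 FPKM in PhoKO against 165 to 197 FPKM in WT. The share called higher over all tested genes was 4.59%. Of 8 disc epithelium markers 0 were called in PhoKO against WT, with 1 at an unadjusted p under 0.05, beside 2306 of 9748 tested genes. The eye genes of the target list are also used in the optic lobe and lamina, and the part of tissue makeup in their values was not tested. Without the shallow libraries WT 3 and PhoKO 1, an alternative chosen after seeing the data, the calls of ato, eya, so, stg and h in PhoKO against WT held and that of rho was lost (0.17, adjusted p = 0.135 in limma).

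Among 20 segment polarity and posterior genes that work beside en, 17 were tested, and prd, eve and ftz were below the filter. In SppsKO 2 were higher than WT and 0 lower, with a median log2 fold change of 0.06. In PhoKO 1 was higher and 3 were lower, with a median of 0.03, and between the mutants 1 was higher and 3 were lower in PhoKO, with a median of -0.06. Over all tested genes 3.92% were higher and 4.26% lower in SppsKO against WT. These shares were 4.59% and 5.08% in PhoKO against WT, and 7.24% and 7.12% between the mutants. Like the target list, this list was chosen with earlier results of these data known. The paired homeobox gene gsb moved in opposite directions in the mutants. It was at 5.003, 5.53 and 5.18 FPKM in WT, at 8.41, 7.55, 8.94 and 9.98 FPKM in SppsKO and at 4.18, 3.54 and 3.33 FPKM in PhoKO. No library of 1 group reached into another. The log2 fold changes were 0.63 in SppsKO (SE 0.09, adjusted p = 0.00305 in limma), -0.42 in PhoKO (SE 0.10, adjusted p = 0.0320 in limma) and -1.05 from SppsKO to PhoKO (SE 0.09, adjusted p = 0.000118 in limma). The gsb call in PhoKO against WT was lost without PhoKO 2 or 3, SppsKO 1 or 3, or any WT library, at -0.44 to -0.36 and adjusted p of 0.0524 to 0.0946 in limma, and in a fit of PhoKO and WT alone (0.0752).

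Its neighbour and paralogue gsb-n was between 2.55 and 2.72 FPKM in PhoKO and between 3.99 and 4.23 FPKM in WT, a log2 fold change of -0.49 (SE 0.08, adjusted p = 0.00338 in limma). In SppsKO gsb-n was at 0.06 (95% interval -0.10 to 0.22). The Wnt ligand gene wg was higher in SppsKO by 0.23 (adjusted p = 0.0409 in limma), and the call was lost without any single library except PhoKO 1 and WT 2, at 0.16 to 0.24 and adjusted p of 0.0502 to 0.104. It was also lost with eBayes without trend, a fit of SppsKO and WT alone, median-of-ratios scaling, no filter, or without WT 3 and PhoKO 1 together, at adjusted p of 0.0501 to 0.0852. In PhoKO the Wnt feedback inhibitor gene nkd was at 0.26 and the receptor gene fz at -0.23, with adjusted p of 0.0338 and 0.0469 in limma. The nkd call was lost without PhoKO 2 or 3, SppsKO 1 or 2, or WT 1 or 3, at 0.23 to 0.26 and adjusted p of 0.0540 to 0.112, in a fit of PhoKO and WT alone (0.0817) and without WT 3 and PhoKO 1 together (0.0854). The fz call was lost without any single library except PhoKO 3 and SppsKO 4, at -0.27 to -0.15 and adjusted p of 0.0526 to 0.106. It was also lost with eBayes without trend, a fit of PhoKO and WT alone, either other scaling, no filter, or without WT 3 and PhoKO 1 together, at adjusted p of 0.0505 to 0.140. From SppsKO to PhoKO the limb selector gene Dll was at 0.25 and fz at -0.25 (adjusted p = 0.0345 and 0.0208 in limma). These calls were lost without any single library of either mutant except PhoKO 1 for Dll, at 0.19 to 0.27 and adjusted p of 0.0547 to 0.106 (0.0510 with no filter), and without SppsKO 2 for fz, at -0.25 and 0.05195. The abundant members arm, the fly beta-catenin, fz2, another Wnt receptor, and nmo, a kinase, were not called in any comparison.

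The genes that flank the en and inv domain, E(Pc) and tou, were 0 of 2 called in all 3 comparisons, with 0 at an unadjusted p under 0.05. E(Pc) encodes a protein of the Tip60 acetyltransferase complex and had log2 fold changes of 0.02 in SppsKO and 0.07 in PhoKO (95% intervals -0.07 to 0.12 and -0.04 to 0.17). The nucleosome remodelling gene tou was at 0.03 in both (95% intervals -0.13 to 0.19 and -0.15 to 0.20). Of the 29 nearest tested neighbours of the 6 members, up to 3 on each side, 1 was higher and 1 lower in SppsKO than in WT. The called share of these neighbours was 6.90% in SppsKO, 3.45% in PhoKO and 6.90% between the mutants, below the 8.18%, 9.66% and 14.4% over all tested genes. CG8635, next to ptc, rose from 80.1 to 90.6 FPKM, and CG7777, beyond qvr and E(Pc) on the inv side, fell from 66.7 to 41.1 FPKM. In PhoKO CG3625, near smo, was higher than WT and 0 neighbours were lower, and between the mutants Acsl, next to ptc, was higher and CG8635 lower in PhoKO.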

How the data were processed

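Poly(A) RNA of 10 libraries was analysed, and the 42 ChIP-Seq samples of the series were not analysed here. The deposited unit is FPKM, normalized between libraries by the authors, as the name of their table states. Per the submitters' processing notes, the builds were dm3 and BDGP5, and the tools named for the series include TopHat2 2.1.1, HTSeq, Cufflinks and Cuffnorm. The tool behind the FPKM values, its annotation and its strand setting were not given in the sources used here. Of 16502 symbols, 16239 matched the Release 6 plus ISO1 MT gene table, used for names, synonyms, overlaps and neighbour order only. FPKM is not a count, so absolute depth is unknown. Relative depth was read from steps among genes under 0.3 FPKM.

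Values were taken as log2(FPKM + 1), which understates changes of low genes. Genes with 1 FPKM or more in at least 3 libraries were tested, 9748 in all. All 10 libraries entered 1 model in limma 3.58.1 under R 4.3.3 (robust eBayes with a trend and no covariate), and p was adjusted by Benjamini-Hochberg within each comparison, with calls at an adjusted p under 0.05. The steps were tested on simulated data. The 3 comparisons share libraries in pairs, so values are set side by side and no overlap of calls is given. Ratios were tested by two-sided exact permutation tests.

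The 6 members and all lists were chosen with earlier results of these data known. Of a list, called members were named (the 6 with the lowest adjusted p where more than 6 were called), and up to 3 others by mean FPKM. Likeness used genes of a mean of 2 FPKM or more. Alternatives were pseudocounts of 0.1 and 5, no filter, a mean of 5 FPKM or more, quantile and median-of-ratios scaling, array weights, eBayes without trend, a fit of the compared groups only, a replicate block and each library left out. Leaving out the shallow libraries, and the fold changes of single list genes under every alternative, were added after seeing the data.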

Additional observations from a re-analysis of the deposited data

Results flagged for a closer look

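Of 34 group values of the named genes with 4 libraries, 1 had a library far from the others by Dixon's criterion, which chance flags in about 1 in 20 groups. The repressor gene h was at 27.8 FPKM in SppsKO 4 and between 29.1 and 29.3 FPKM in the other SppsKO libraries, with a gap of 0.865 of the range, which is above the critical value for 4 samples. SppsKO 4 was also the library of its group with the lowest summed muscle and disc epithelium markers, at 67.7 and 289 FPKM.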

How the results depend on the processing

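The 3 comparisons of 6 members gave 18 fold changes, and 1 of them, hh between the mutants, was called. Library numbers did not pair the samples, since 2 of 9 same-number pairs correlated over 0.1 (r from -0.38 to 0.11). With the replicate block, hh between the mutants was -0.21 (adjusted p = 0.0957 in limma), smo between the mutants was 0.0022, and the ptc to ci ratio in SppsKO against WT was 0.0069. SppsKO 4 is the only library with its number, so under the block it adds nothing to the differences from SppsKO. These 3 values therefore equal those obtained without SppsKO 4, and the block is not a separate check of them. The block gave 449 genes called in SppsKO and 753 between the mutants, against 797 and 1400. Its list counts were 0 for release and reception, 1 for transduction, 5 for targets and 3 for chromosome 4 between the mutants, 1 for segment polarity and 2 for chromosome 4 in SppsKO, and 2 for segment polarity in PhoKO.

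Array weights gave the most calls, 2263 in SppsKO, 2178 in PhoKO and 2764 between the mutants. They called inv between the mutants (-0.15, adjusted p = 0.0499 in limma) and turned ci in PhoKO to 0.0875 and smo between the mutants to 0.0130. In SppsKO, PhoKO and between the mutants, the weighted list counts were 3, 3 and 2 for release and reception, 8, 8 and 6 for transduction, 7, 8 and 9 for segment polarity, and 18, 17 and 15 for chromosome 4, with 7 targets in SppsKO. Quantile scaling moved the split of calls to 625 higher and 307 lower in SppsKO, against 382 and 415, and to 523 and 819 between the mutants, against 706 and 694. It gave 1 release and reception gene, 1 transduction gene and 2 targets in SppsKO, 4 transduction genes in PhoKO, and 2 release and reception and 9 chromosome 4 genes between the mutants.

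Without WT 3 and PhoKO 1, hh between the mutants was -0.18 (adjusted p = 0.0955 in limma), ci in PhoKO was 0.0866 and 627 genes were called in PhoKO. This also gave 3 targets and 1 transduction, 1 segment polarity and 8 chromosome 4 genes in SppsKO, and 9 chromosome 4 genes between the mutants. The fit of the compared groups only gave 471 genes in PhoKO, 1 gene each for transduction and segment polarity there, 1 release and reception, 2 target, 1 segment polarity and 8 chromosome 4 genes in SppsKO, and 10 of chromosome 4 between the mutants. Segment polarity in SppsKO fell to 1 gene also with eBayes without trend, median-of-ratios scaling and no filter. A mean of 5 FPKM or more left 3 chromosome 4 genes there.

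Leaving out single libraries gave 506 to 838 genes called in SppsKO, 554 to 1112 in PhoKO and 829 to 1671 between the mutants. The count moved by over 1.5 times in SppsKO without SppsKO 2 (506) or WT 1 (530), in PhoKO without PhoKO 1, 2 or 3 or WT 1 (620, 572, 627 and 554), and between the mutants without PhoKO 1, PhoKO 2 or SppsKO 2 (829, 844 and 845). For members, hh was -0.31 to -0.18 between the mutants and 0.13 to 0.15 in SppsKO, smo was -0.0477 to 0.0022 between the mutants, and in PhoKO en was -0.21 to 0.0270, inv -0.10 to 0.0316 and ci -0.11 to 0.0250. Log2 ratios in SppsKO were -0.0673 to 0.0880 for ci to en and -0.11 to 0.0350 for ptc to ci. In PhoKO they were -0.0026 to 0.17 for ci to en, -0.0658 to 0.12 for hh to en and -0.00015 to 0.17 for inv to en. Between the mutants they were -0.13 to 0.0572 for hh to en and -0.0620 to 0.11 for inv to en. List counts in SppsKO, PhoKO and between the mutants were 0 to 2, 1 to 1 and 0 to 1 for release and reception, 0 to 1, 1 to 3 and 1 to 5 for transduction, 1 to 2, 4 to 7 and 6 to 9 for targets, 1 to 2, 1 to 4 and 2 to 7 for segment polarity, and 4 to 7, 4 to 11 and 4 to 11 for chromosome 4. The cause of these changes was not tested. For the members, ratios and counts, 729 recomputed values kept their direction and side of the threshold, or stayed within the tolerance of a count or ratio. Of the remaining values, 99 counts moved past that tolerance, 22 values changed sign, 8 lost a call and 2 gained a call.

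The calls of single list genes were less stable. Of 32 such calls, the replicate block lost 12, the fit of the compared groups only and the fit without WT 3 and PhoKO 1 lost 8 each, no filter lost 6, and eBayes without trend, median-of-ratios scaling and quantile scaling lost 3 each. Array weights and a mean of 5 FPKM or more lost 1 call each, for dpp, and gsb-n is below that mean and has no value there. Pseudocounts of 0.1 and 5 lost 0. Under the block the lost calls were h, rho, gsb and fz in PhoKO, wg in SppsKO, and Dll, Gprk1, Gprk2, dac, dpp, kn and rho between the mutants, with adjusted p of 0.05135 to 0.131 in limma. Leaving out single libraries lost 83 of 320 recomputed calls, and no call changed sign in any of these settings. The FPKM scale gives no counting error, so small differences can be judged only by the spread between libraries.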

Other observations

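Chromosome 4 holds both ci and pho, and 82 of its genes were tested. In SppsKO 1 of 82 was called higher and 4 lower than WT, in PhoKO 1 higher and 5 lower, and between the mutants 2 were higher and 3 lower in PhoKO. These are 6.10%, 7.32% and 6.10% of the genes tested there, beside 8.18%, 9.66% and 14.4% over all tested genes. The median log2 fold change of the chromosome was -0.0085 in SppsKO, -0.02 in PhoKO and 0.0037 between the mutants. The targeted gene pho is 1 of the 5 lower genes in PhoKO. The Ski/Sno family gene fuss was lower in both mutants, at 3.65, 3.60 and 4.72 FPKM in WT, between 1.91 and 2.21 FPKM in SppsKO and between 1.31 and 1.80 FPKM in PhoKO. The HMG-box gene Sox102F was called higher in SppsKO, at 20.7 to 22.7 FPKM against 16.3 to 19.0 FPKM in WT, and in PhoKO it was between 15.8 and 17.2 FPKM. The remaining called genes were CG31999, CG32850 and CR44030 in SppsKO, and CG32850, CR44024, Pur-alpha and CR44030 in PhoKO. Between the mutants the called genes were CG32850, CR44024, Sox102F, Rfabg and pho.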
